A study of Mus musculus with 8 samples.

Results

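Mitosis and spindle checkpoint genes were followed in mouse regulatory T cells (Tregs) cultured with BMS309403, an inhibitor of fatty acid-binding proteins in a study of FABP5. The set holds 45 genes, taken by symbol from the 53465 gene IDs of the count files. Each symbol matched 1 ID, and all 45 passed the filter on low counts, among 14443 genes tested. The cells were CD4+ T cells of wild-type C57BL/6 mice, selected from spleen and lymph nodes and polarized in vitro, and no later sort of the polarized cells is described. Both groups were stimulated with plate-bound anti-CD3 at 5 µg/mL and anti-CD28 at 0.5 µg/mL. Polarization used TGF-β at 5 ng/mL and IL-2 at 100 U/mL, while anti-IFN-γ, anti-IL-12 and anti-IL-4, at 10 µg/mL, blocked other helper fates. After 72 h the cultures were split, and 4 libraries came from cells with 50 µM BMS309403 (treated) and 4 from cells without it (control). The labels give neither the length of exposure nor a vehicle, and they do not say whether replicates were separate mice or cultures. The spread behind every p-value is therefore that between these libraries and could be technical alone.

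Mitosis is driven by the kinase CDK1 bound to cyclin B, with Polo and Aurora kinases acting beside it on centrosomes, chromosomes and the spindle. The spindle assembly checkpoint holds the anaphase promoting complex in check until every kinetochore is attached to microtubules. Once released, that complex marks securin and cyclin B for destruction, separase cuts cohesin, and the cell divides. The genes of this machinery are switched on together late in the cell cycle by the factors MuvB, B-Myb and FOXM1, so that their RNAs mark dividing cells, such as T cells stimulated through CD3 and CD28.

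Total counts lay between 38684721 and 42552943 in treated and between 32923433 and 44644485 in control libraries. Levels are given in CPM, counts scaled to a library total adjusted by the trimmed mean of M values (TMM), and values per library run in the order of replicates 1 to 4. A fold change is treated over control, and genes passed at an adjusted p under 0.05. The members were well covered, with between 497 and 60763 reads for a gene in a library. On the first principal component of all tested genes (60.1% of the variance) the groups were apart, and on the second (14.8%) replicate 1 of each group lay highest of its group. Foxp3, the defining Treg transcription factor, was at 1234, 1259, 1262 and 1234 CPM in treated and 1029, 942, 929 and 901 CPM in control libraries (log2 fold change 0.39, SE 0.048, edgeR adjusted p = 6.05e-05). Of 7 T cell and Treg markers Foxp3, Il2ra (0.41 on the log2 scale), Ikzf2 (0.83) and Tnfrsf18 (0.66) rose, Cd3e fell (log2 fold change -0.46), and Cd4 (-0.06) and Ctla4 (0.06) did not pass the test. The summed level of B cell markers was 4.42 to 6.62 CPM in treated and 5.26 to 7.76 CPM in control libraries. That of myeloid markers was 0.858 to 3.18 CPM in treated and 1.97 to 3.81 CPM in control libraries, and that of CD8 T cell markers 10.2 to 14.9 CPM in treated and 9.89 to 14.3 CPM in control libraries. NK cell markers summed to at most 0.051 CPM and red cell markers to at most 0.565 CPM in any library, with Ncr1, Klra8 and Hbb-bs at 0 counts throughout. Among these other-cell markers Cd79b (B cells) and Adgre1 (myeloid cells) fell, both at low counts. Cd79b had 58 to 65 counts in treated and 67 to 98 counts in control libraries. Adgre1 had only 4 to 8 counts in treated and 14 to 23 counts in control libraries. The part of such cells in the results was not tested. Fabp5 was at 153 ± 18.3 CPM in treated and 178 ± 23.7 CPM in control libraries (SD, n = 4), with an edgeR adjusted p = 0.0934, and with the replicate number as a block its adjusted p was 1.29e-05. Fabp5 also passed without treated replicate 1 (adjusted p = 0.0368), without control replicate 4 (0.0288) and without replicate 1 of both groups (0.0372). It passed without a filter on low counts (0.0229) and missed the threshold in the other alternative fits.

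RNAs of the listed members, which were chosen with earlier results of these data known, fell in treated Tregs almost throughout, each by a modest amount. Of the 45 members, 42 fell and 1 rose by edgeR's quasi-likelihood test with Benjamini-Hochberg adjustment over all genes tested. Among all 14443 genes, 18.1% fell and 18.7% rose under the same rule. The median log2 fold change was -0.38 over the members and 0.01 over all genes. The decreases that passed lay between 1.13-fold (Bub3) and 1.46-fold (Cenpa), and 0 members were 1.5-fold lower or more. In 41 members every treated library lay below every control library, a separation seen for 16.1% of all genes. Whether fewer cells were in mitosis or each held less of these RNAs cannot be told apart in bulk samples.

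Together the members took 0.735% to 0.774% of all counts in treated libraries and 0.907% to 0.986% in control libraries. Their summed level was 7813, 7524, 7354 and 7508 CPM in treated and 9247, 9464, 9343 and 9842 CPM in control libraries. The highest treated sum, that of replicate 1, was below the lowest control sum, also that of replicate 1. Without Top2a and Mki67, the members with the most counts, the sums averaged 5445 ± 149.7 CPM in treated and 7011 ± 131 CPM in control libraries (SD, n = 4).

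**Figure D1:**
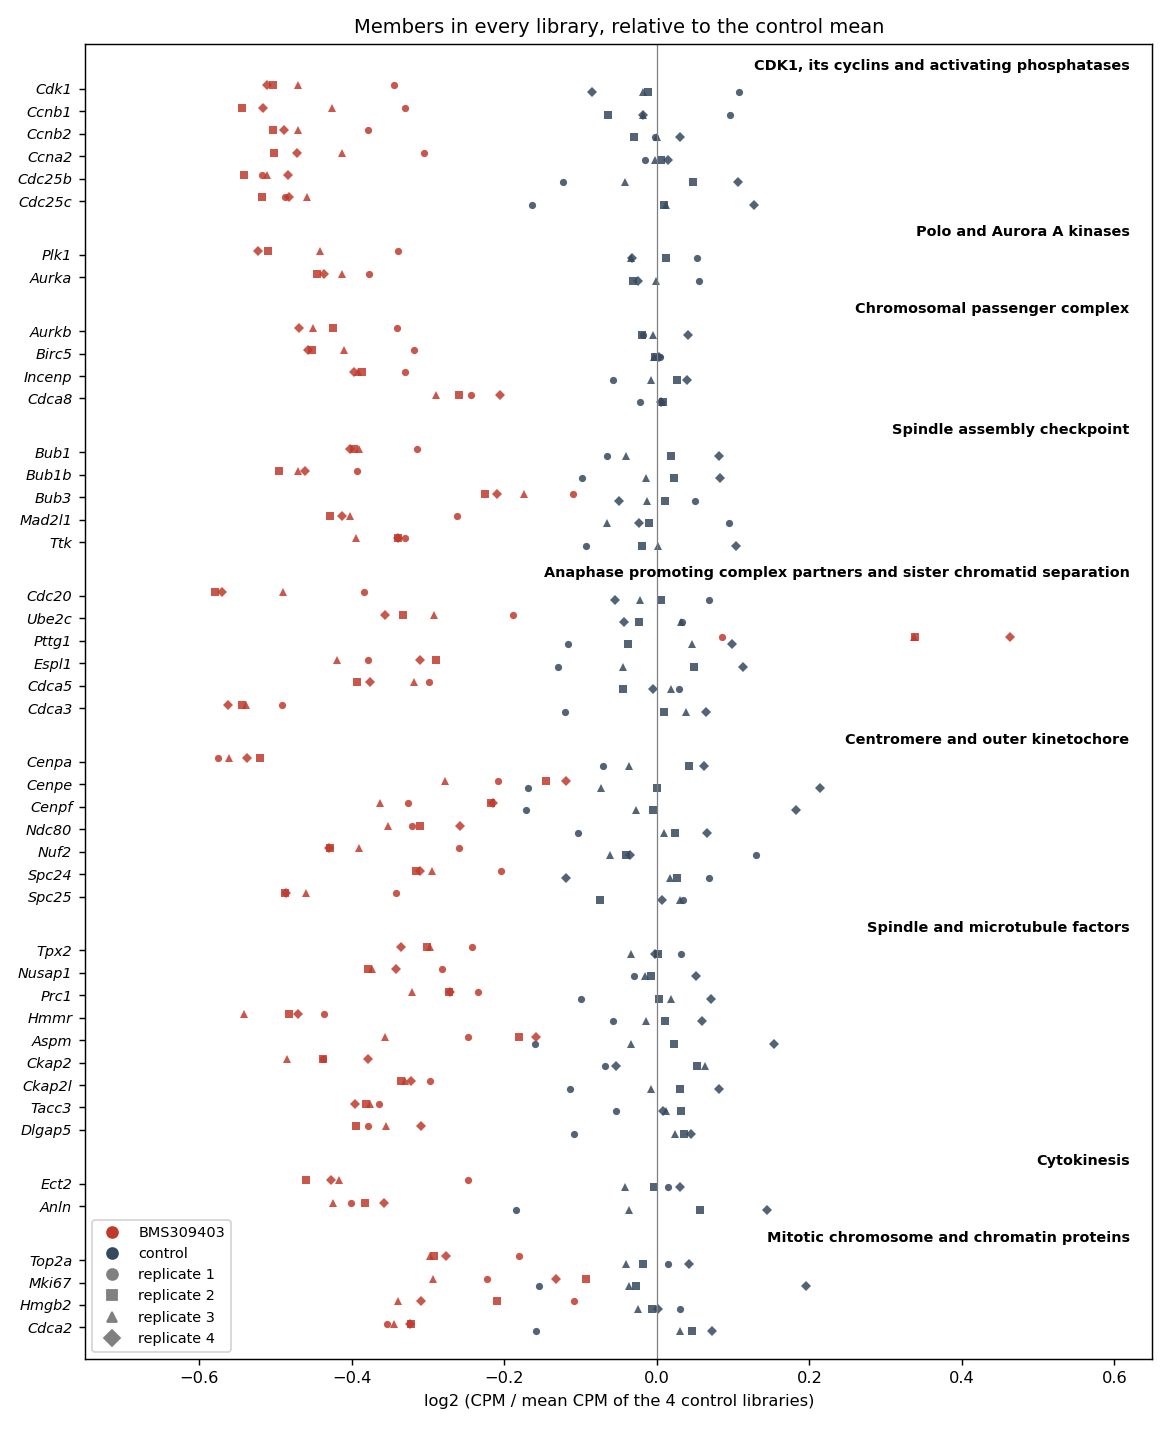
CPM of each member in each of the 4 treated (red, upper row of a gene) and 4 control (dark, lower row) libraries, as the log2 ratio to the mean of the 4 control libraries, with 1 symbol per replicate number and genes grouped by role. In 41 of 45 genes all red points lie left of all dark points; Pttg1, Cenpe, Mki67 and Aspm overlap.

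Many promoters of these genes hold short elements that are typical of late cell cycle genes. The members were listed for roles in mitosis, so a high share was foreseeable whatever the treatment did. The cell cycle homology region, TTTGAA, is a site through which MuvB complexes act on late cell cycle genes in mammals, and CCAAT is the box bound by the factor NF-Y. RefSeq windows of 300 bases on GRCm38.p6, from 250 before to 50 after the transcription start, were found for 37 members. No window was found for Aurkb, Ccna2, Cdc25c, Cdca2, Dlgap5, Incenp, Spc24 and Tpx2. TTTGAA was present on either strand in 27 of the 37 members (73.0%), against 20.2% of 27025 genes with such a window. CCAAT was present on either strand in 28 (75.7%), against 41.1% of all genes, and both elements in 24 (64.9%), against 8.97%. In 25 members a TTTGAA match began within 50 bases of the start, and this share was not computed for all genes. The motifs can overlap by a single base. A match describes the letters only, and its part in the change was not tested.

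Promoter stretches are shown for the member with the largest decrease (Cenpa), for 3 core regulators (Cdc20, Cdk1 and Ccnb2), for the proliferation marker that missed the threshold (Mki67) and for the member that rose (Pttg1). Each runs from 200 bases before to 30 bases after the RefSeq start, in the direction of transcription, and capitals mark TTTGAA and CCAAT on either strand.
Cenpa, chr5:30666686-30666915, plus strand: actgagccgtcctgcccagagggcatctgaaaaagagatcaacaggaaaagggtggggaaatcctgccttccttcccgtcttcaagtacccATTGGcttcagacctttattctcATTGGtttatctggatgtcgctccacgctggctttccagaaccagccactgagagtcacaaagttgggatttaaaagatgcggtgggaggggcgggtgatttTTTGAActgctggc
Cdc20, chr4:118437314-118437543, minus strand: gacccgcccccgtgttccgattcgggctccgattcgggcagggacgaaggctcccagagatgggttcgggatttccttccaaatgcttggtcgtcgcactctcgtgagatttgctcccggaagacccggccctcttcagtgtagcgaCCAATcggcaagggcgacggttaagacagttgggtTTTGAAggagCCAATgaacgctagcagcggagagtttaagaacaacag
Cdk1, chr10:69352883-69353112, minus strand: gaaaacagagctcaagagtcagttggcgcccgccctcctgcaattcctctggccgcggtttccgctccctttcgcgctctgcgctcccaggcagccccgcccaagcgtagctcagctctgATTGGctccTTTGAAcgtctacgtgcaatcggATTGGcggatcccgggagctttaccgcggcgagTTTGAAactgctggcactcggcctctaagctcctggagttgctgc
Ccnb2, chr9:70421525-70421754, minus strand: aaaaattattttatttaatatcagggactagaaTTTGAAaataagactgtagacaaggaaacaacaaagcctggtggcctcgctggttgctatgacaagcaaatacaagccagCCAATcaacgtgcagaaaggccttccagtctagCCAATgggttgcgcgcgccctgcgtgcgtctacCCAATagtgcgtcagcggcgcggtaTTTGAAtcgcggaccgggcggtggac
Mki67, chr7:135716350-135716579, minus strand: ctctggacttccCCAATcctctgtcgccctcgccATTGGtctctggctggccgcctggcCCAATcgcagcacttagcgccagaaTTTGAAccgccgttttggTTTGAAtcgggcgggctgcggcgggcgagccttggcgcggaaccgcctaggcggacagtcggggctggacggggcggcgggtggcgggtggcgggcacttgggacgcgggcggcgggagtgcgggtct
Pttg1, chr11:43425952-43426181, minus strand: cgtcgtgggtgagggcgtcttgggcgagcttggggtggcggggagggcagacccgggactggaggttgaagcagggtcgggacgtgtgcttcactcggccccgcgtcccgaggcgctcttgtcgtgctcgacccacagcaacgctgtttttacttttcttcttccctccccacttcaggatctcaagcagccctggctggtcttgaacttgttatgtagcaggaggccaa
Cenpa, Cdc20, Cdk1 and Ccnb2 each hold TTTGAA close to the start and at least 1 CCAAT box upstream of it. Mki67 holds both elements further upstream. The Pttg1 stretch holds neither, which says only that these letters are not in this window. It lies wholly inside the GENCODE gene, whose outermost start is further upstream. Birc5, Mad2l1, Nuf2, Nusap1 and Tacc3, which fell, likewise hold neither element in their windows of 300 bases. Other members that fell hold only 1 element there. Bub1, Ccnb1 and Cdc25b have CCAAT without TTTGAA, and Anln, Cdca5 and Ndc80 have TTTGAA without CCAAT.

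**Figure D2:**
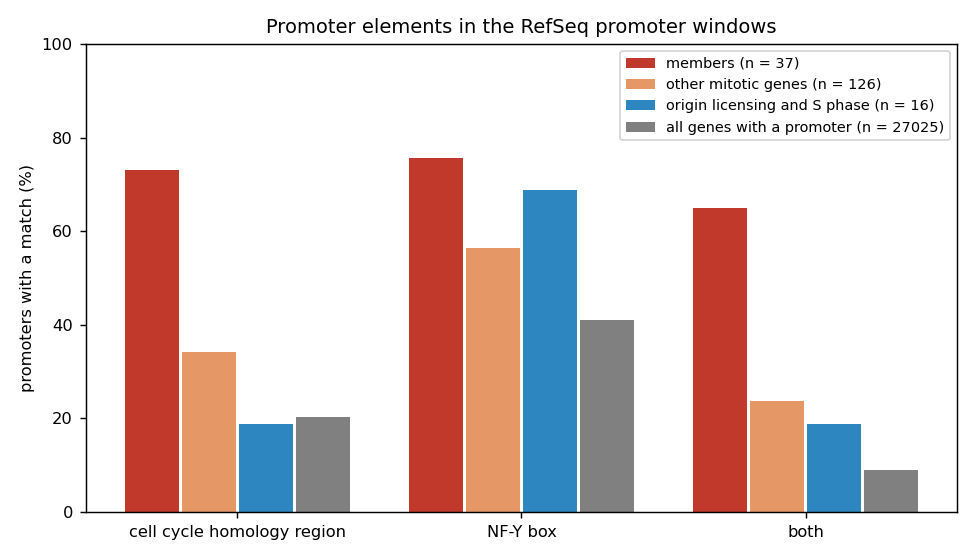
Share (%) of RefSeq promoter windows with a match to the cell cycle homology region, the NF-Y box or both, for the members (n = 37), the other mitotic genes (n = 126), the origin licensing and S phase genes (n = 16) and all genes (n = 27025). Both elements occur together in 64.9%, 23.8%, 18.8% and 8.97% of these windows.

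All 6 genes of CDK1, its cyclins and its activating phosphatases fell, and their median log2 fold change was -0.46. Ccna2, the cyclin A of S phase and mitotic entry, was at 323, 282, 300.04 and 288 CPM in treated and 395, 401, 399 and 403 CPM in control libraries (log2 fold change -0.42, SE 0.046, edgeR adjusted p = 2.78e-05). Cdc25b, a phosphatase that starts CDK1 activation, was at 170.3, 168, 171 and 174 CPM in treated and 224, 252, 237 and 263 CPM in control libraries (log2 fold change -0.51, SE 0.050, edgeR adjusted p = 9.97e-06). Cdk1 itself (ENSMUSG00000019942, chromosome 10, 69335146 to 69352938, minus strand in GRCm38) was at 142, 127, 129.9 and 126 CPM in treated and 194, 179, 178 and 169.8 CPM in control libraries (log2 fold change -0.46, SE 0.052, edgeR adjusted p = 3.76e-05). In each of these genes the lowest control library was well above the highest treated one, and for Ccna2 and Cdk1 replicate 1 was the highest treated library. Both B cyclins, the partners of CDK1 in mitosis, were lower, Ccnb1 1.37-fold lower (adjusted p = 5.41e-05) and Ccnb2 1.38-fold lower (adjusted p = 3.77e-06). Cdc25c, which acts at mitotic entry, was 1.40-fold lower (adjusted p = 9.16e-05).

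Both members listed as Polo and Aurora A kinases were lower. Plk1, the Polo kinase of centrosome maturation and checkpoint recovery, was at 141, 125, 131 and 124 CPM in treated and 185, 179, 174 and 174 CPM in control libraries (log2 fold change -0.45, SE 0.047, edgeR adjusted p = 1.72e-05). Aurka, the centrosomal Aurora kinase, was at 82.0, 78.2, 80.0 and 78.8 CPM in treated and 111, 104, 107 and 105 CPM in control libraries (log2 fold change -0.42, SE 0.038, edgeR adjusted p = 5.30e-06). The groups did not overlap for either gene.

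The 4 subunits of the chromosomal passenger complex, which corrects faulty attachments of chromosomes and guides cytokinesis, all fell. Incenp, the scaffold, was at 209, 201, 200.4 and 199.7 CPM in treated and 253, 268, 261 and 270.2 CPM in control libraries (log2 fold change -0.38, SE 0.039, edgeR adjusted p = 1.53e-05). Aurkb, the catalytic subunit, was at 161, 152, 149 and 147 CPM in treated and 201, 201, 203 and 209.9 CPM in control libraries (log2 fold change -0.42, SE 0.040, edgeR adjusted p = 8.72e-06). Birc5, which encodes survivin, was at 132, 120.1, 124 and 119.6 CPM in treated and 165, 164, 164 and 165 CPM in control libraries (log2 fold change -0.41, SE 0.040, edgeR adjusted p = 1.11e-05). The 4 control values of Birc5 were almost equal, with an SD of 0.494 CPM. Cdca8, which encodes borealin, was 1.19-fold lower (adjusted p = 0.000212), a smaller change than in its partners; the difference between subunits was not tested.

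All 5 genes of the spindle assembly checkpoint fell. Bub1b, which encodes the CDC20 inhibitor BUBR1, was at 177, 165, 168 and 169 CPM in treated and 217, 236, 229.9 and 246 CPM in control libraries (log2 fold change -0.46, SE 0.046, edgeR adjusted p = 1.33e-05). Bub3, the adaptor that brings BUB1 and BUBR1 to kinetochores, was at 193, 178, 184 and 179.9 CPM in treated and 215, 209.7, 206 and 201 CPM in control libraries (log2 fold change -0.18, SE 0.041, edgeR adjusted p = 0.0051). Mad2l1, which encodes the checkpoint protein MAD2, was at 122, 108, 110.4 and 109 CPM in treated and 156, 145, 139 and 144 CPM in control libraries (log2 fold change -0.38, SE 0.049, edgeR adjusted p = 0.000117). Bub3 had the smallest decrease of the members that passed, and its lowest control library, replicate 4, was only just above its highest treated library, replicate 1. The kinase gene Bub1 was 1.30-fold lower (adjusted p = 3.88e-05), and Ttk, which encodes the checkpoint kinase MPS1, was 1.28-fold lower (adjusted p = 0.000173).

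Among partners of the anaphase promoting complex and genes of sister chromatid separation, 5 of 6 fell and 1 rose. Ube2c, the ubiquitin-conjugating enzyme of the complex, was at 194, 176, 181 and 173 CPM in treated and 227, 218, 226 and 215 CPM in control libraries (log2 fold change -0.29, SE 0.045, edgeR adjusted p = 0.000382). Cdc20, the activator that the checkpoint restrains (ENSMUSG00000006398, chromosome 4, 118432901 to 118437352, minus strand in GRCm38), was at 149.7, 131, 139 and 132 CPM in treated and 205, 196, 192 and 188 CPM in control libraries (log2 fold change -0.50, SE 0.050, edgeR adjusted p = 1.20e-05). Cdca3, a target of the complex that promotes mitotic entry, was at 128, 124, 124 and 122 CPM in treated and 166, 182, 185 and 189 CPM in control libraries (log2 fold change -0.53, SE 0.045, edgeR adjusted p = 3.28e-06). These groups were fully apart. Espl1, the separase gene, was 1.27-fold lower (adjusted p = 0.000424), and Cdca5, which encodes the cohesin protector sororin, was 1.27-fold lower (adjusted p = 3.63e-05).

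Pttg1, the gene of securin, was the single member that rose. Securin keeps separase inactive until anaphase. Pttg1 (ENSMUSG00000020415, chromosome 11, 43420250 to 43426251, minus strand in GRCm38) was at 17.7, 21.1, 21.1 and 23.0 CPM in treated and 15.4, 16.2, 17.2 and 17.9 CPM in control libraries (log2 fold change 0.31, SE 0.081, edgeR adjusted p = 0.0105). The lowest treated library, replicate 1, was just below the highest control library, replicate 4, while the other treated libraries were above all controls. Within each of the 4 replicate numbers the treated library was the higher. Its mean over all 8 libraries was the lowest, and its SE the highest, of the 45 members.

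Of the 7 centromere and outer kinetochore genes 6 fell. Cenpa, the histone H3 variant that marks centromeres (ENSMUSG00000029177, chromosome 5, 30666777 to 30674830, plus strand in GRCm38), was at 164, 170.4, 166 and 168 CPM in treated and 233, 252, 238 and 255 CPM in control libraries. It had the largest decrease of all members (log2 fold change -0.55, SE 0.041, edgeR adjusted p = 1.22e-06). Cenpe, a kinesin motor that carries chromosomes to the spindle equator, was at 146, 152, 139 and 155 CPM in treated and 149.9, 169, 160.3 and 196 CPM in control libraries (log2 fold change -0.19, 95% interval -0.34 to -0.03, edgeR adjusted p = 0.0611). The groups overlapped for Cenpe, with control replicate 1 below treated replicates 2 and 4. Cenpf, which helps to load kinetochore motors, was at 129, 139, 126 and 139.5 CPM in treated and 144, 161, 159 and 184 CPM in control libraries (log2 fold change -0.28, SE 0.067, edgeR adjusted p = 0.00689). Its highest treated library was below its lowest control library, which was again replicate 1.

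The Ndc80 complex, which binds microtubules at the kinetochore, fell in all its 4 subunits. Ndc80 was 1.24-fold lower (adjusted p = 0.000222) and Nuf2 1.30-fold lower (adjusted p = 0.000273). Spc24 was 1.21-fold lower (adjusted p = 0.001) and Spc25 1.36-fold lower (adjusted p = 2.50e-05).

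All 9 spindle and microtubule factors fell, the median log2 fold change being -0.34. Nusap1, a microtubule bundler of the central spindle, was at 215, 201, 202 and 206 CPM in treated and 256, 260.2, 259 and 271 CPM in control libraries (log2 fold change -0.34, SE 0.039, edgeR adjusted p = 3.83e-05). Tpx2, which activates Aurora A on the spindle, was at 214, 205, 206 and 201 CPM in treated and 259, 254, 247 and 253 CPM in control libraries (log2 fold change -0.29, SE 0.038, edgeR adjusted p = 9.20e-05). Tacc3, which stabilizes microtubules of the spindle with clathrin, was at 133, 131, 132 and 129.8 CPM in treated and 165, 175, 172 and 172 CPM in control libraries (log2 fold change -0.38, SE 0.036, edgeR adjusted p = 7.87e-06). The treated libraries of Tacc3 were within a few CPM of each other and far below every control. Hmmr, a spindle pole factor, was 1.40-fold lower (adjusted p = 2.95e-06), and the spindle-associated Ckap2 was 1.35-fold lower (adjusted p = 2.86e-05). Its relative Ckap2l was 1.25-fold lower (adjusted p = 0.000173), and Dlgap5, which encodes the spindle factor HURP, was 1.28-fold lower (adjusted p = 6.42e-05). Prc1, which cross-links the central spindle, was 1.21-fold lower (adjusted p = 0.000455). Aspm, a spindle pole protein, was 1.18-fold lower (adjusted p = 0.0148), and it was the only member that fell while its groups overlapped, control replicate 1 lying below treated replicate 4.

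Both cytokinesis genes fell. Ect2, the exchange factor that activates RhoA at the division plane, was at 84.1, 72.6, 74.8 and 74.2 CPM in treated and 101, 99.5, 97.0 and 102 CPM in control libraries (log2 fold change -0.39, SE 0.049, edgeR adjusted p = 8.93e-05). Anln, which encodes the ring scaffold anillin, was at 50.6, 51.2, 49.8 and 52.1 CPM in treated and 58.8, 69.5, 65.1 and 73.9 CPM in control libraries (log2 fold change -0.39, SE 0.062, edgeR adjusted p = 0.000463). Treated values of Anln were nearly equal, whereas its control values were spread, with replicate 1 lowest and replicate 4 highest.

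Of the 4 genes of mitotic chromosomes and chromatin, 3 fell. Top2a, the topoisomerase that untangles sister chromatids, was at 1220.0, 1129.5, 1126 and 1141 CPM in treated and 1397, 1366, 1345 and 1424 CPM in control libraries (log2 fold change -0.26, SE 0.044, edgeR adjusted p = 0.00068). Hmgb2, a DNA-bending protein abundant in cycling cells, was at 562, 524, 478 and 489 CPM in treated and 618, 603, 595 and 606 CPM in control libraries (log2 fold change -0.24, SE 0.052, edgeR adjusted p = 0.00373). Cdca2, a phosphatase subunit that acts on chromosomes at mitotic exit, was 1.26-fold lower (adjusted p = 0.000292). Mki67, the gene of the proliferation marker Ki-67, was at 925, 1013, 881 and 985 CPM in treated and 970.2, 1059.6, 1053 and 1237 CPM in control libraries (log2 fold change -0.18, 95% interval -0.34 to -0.03, edgeR adjusted p = 0.0643). For Mki67 control replicate 1 lay below treated replicates 2 and 4, and control replicate 4 lay well above all others.

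**Figure D3:**
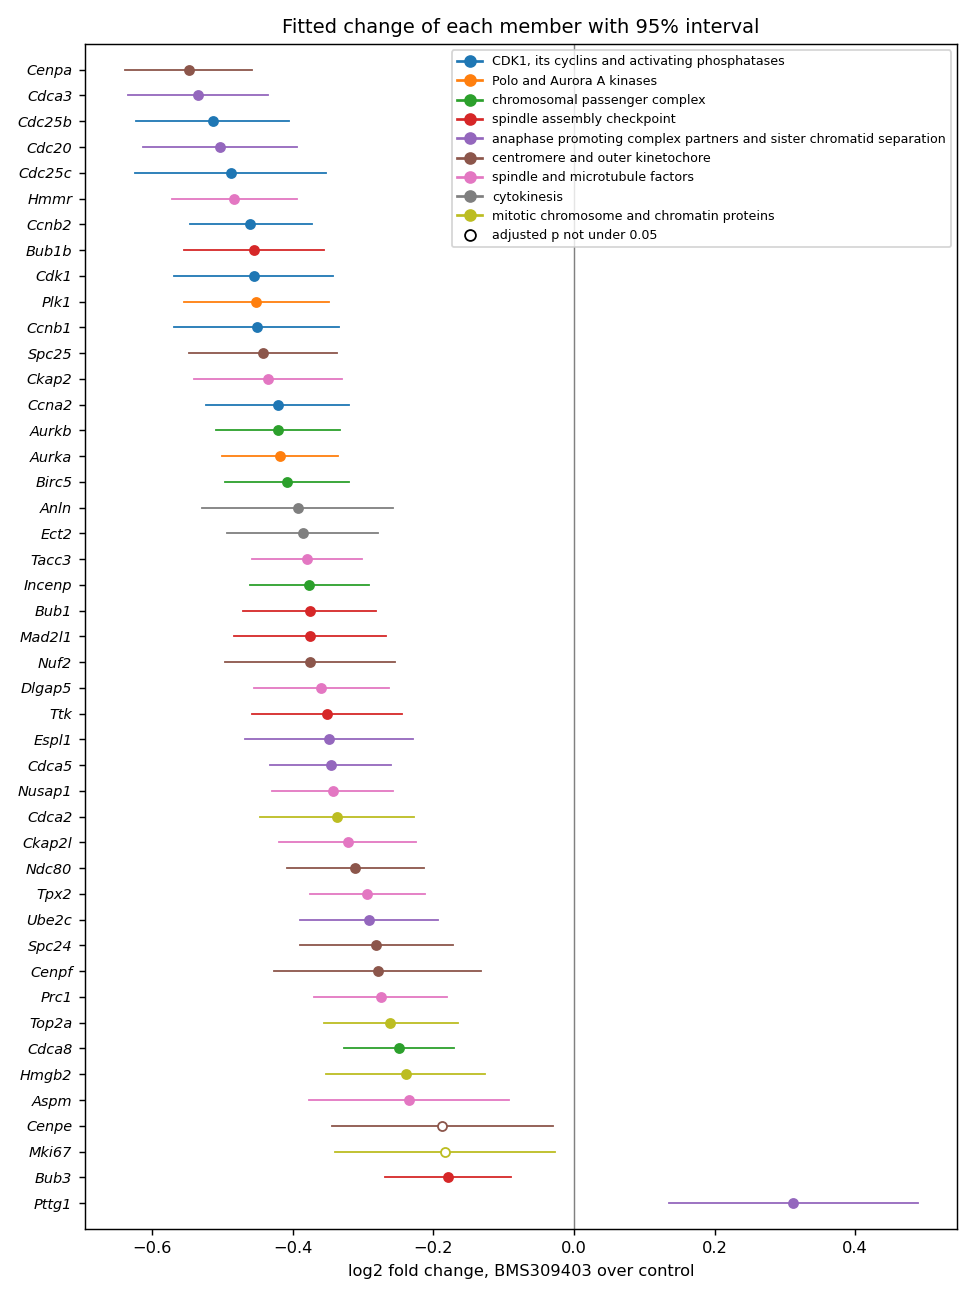
Log2 fold change of each member, treated over control, from edgeR (points) with its 95% interval (lines), coloured by role; open points mark genes whose adjusted p was not under 0.05. All genes but Pttg1 lie left of 0, from -0.55 for Cenpa to -0.18 for Bub3.

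Cenpe and Mki67, the members that missed the threshold, passed when the replicate number was a block. Their adjusted p was then 0.00126 for Cenpe and 0.00238 for Mki67, and 44 members fell and 1 rose, against 25.8% and 26.6% of all genes in that fit. Both also passed without control replicate 1 (adjusted p = 0.00937 for Cenpe and 0.0141 for Mki67), with DESeq2 (0.0404 and 0.0358) and without a filter on low counts (0.028 and 0.0252). In most other alternative fits both missed the threshold. Over all fits the adjusted p reached 0.15 for Cenpe and 0.16 for Mki67. The log2 fold change lay between -0.24 and -0.109 for Cenpe and between -0.232 and -0.113 for Mki67. Within each replicate number 44 of the 45 members were lower in the treated library, the exception being Pttg1 each time. The median log2 ratio of treated to control over the members was -0.27 for number 1, -0.41 for number 2, -0.38 for number 3 and -0.41 for number 4. Number 1 thus showed the smallest difference. Treated replicate 1 was the highest of the treated libraries in 30 of 45 members. Control replicate 1 was the lowest of the control libraries in 26 members and the highest in 15.

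The spread between control libraries went with transcript length. Over the 45 members, annotated exonic length had a Spearman rho of -0.41 with the difference of control replicate 1 from the other controls. For control replicate 4 the rho was 0.48. With the log2 fold change it was 0.36 over the members and 0.18 over 14427 tested genes. These values are descriptions over genes that share the same libraries. In the 9 members longer than 8000 bases, among them Mki67, Cenpe, Cenpf and Aspm, control replicate 1 was lower than the other controls by a median of 0.20 on a log2 scale. In the same members control replicate 4 was higher than the other controls by a median of 0.20. Over all 2171 tested genes of that length the medians were -0.05 for replicate 1 and 0.08 for replicate 4, and the median log2 fold change was 0.07. For genes up to 3000 bases the median log2 fold change was -0.42 in 10 members and -0.06 in 5305 tested genes. The members were thus below all genes of like length at both ends, with a median of -0.27 in the 9 longest. The part of length in these values was not tested.

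**Figure D4:**
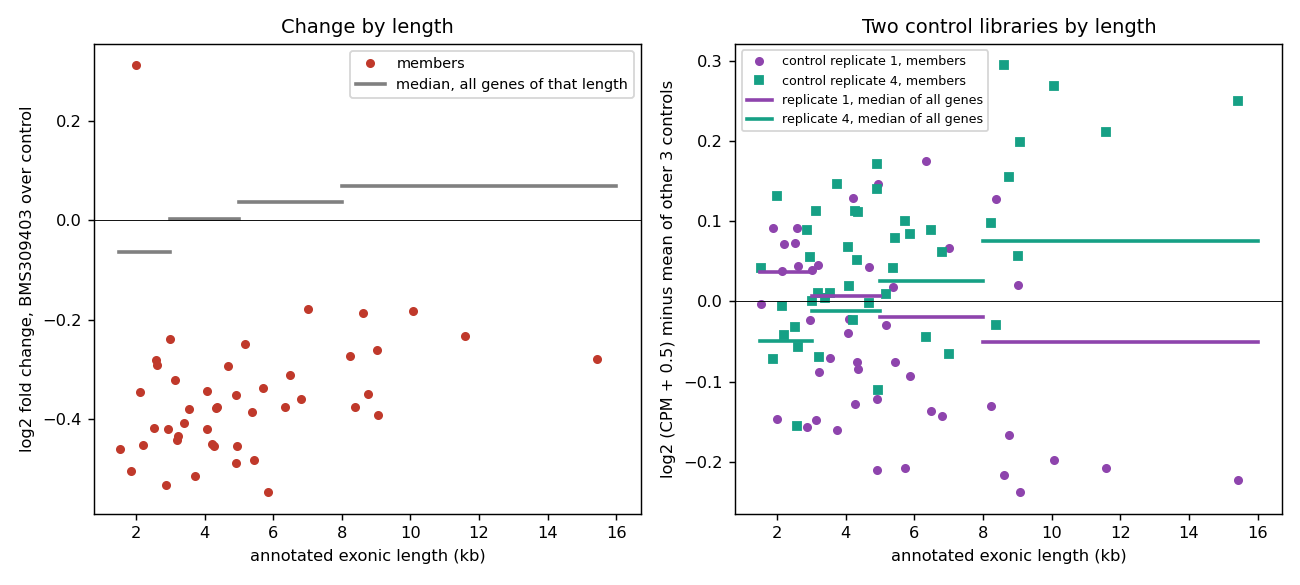
Left, log2 fold change (treated over control) of each member against its annotated exonic length in kb, with grey bars for the median of all tested genes in 4 length ranges. Right, log2 (CPM + 0.5) of control replicates 1 (circles) and 4 (squares) minus the mean of the other 3 controls for each member, with bars for the median of all tested genes; beyond 8 kb most squares lie above 0 and most circles below it.

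Levels per length, in RPKM, reads per kilobase of annotated exon scaled to the library total, differed widely between members. On that scale Hmgb2 stood highest, at 171 ± 12.5 RPKM in treated and 202 ± 3.17 RPKM in control libraries (SD, n = 4), followed by Top2a at 128 ± 4.92 RPKM in treated and 153 ± 3.86 RPKM in control libraries. Mki67 and Ccnb2 followed at almost equal control levels, 107 ± 11.2 and 107 ± 1.86 RPKM, a difference within their spread. The next were Cdc20 and Ccna2, and the lowest was Cdc25c at 4.02 ± 0.0672 RPKM in treated and 5.64 ± 0.462 RPKM in control libraries. Annotated exonic length covers all isoforms, so these levels understate genes with long minor isoforms.

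Other genes of mitosis were taken from 6 lists that exclude the members. Of 155 tested genes 76 fell (49.0%) and 3 rose, the median log2 fold change being -0.15. Among all genes tested 18.1% fell and 18.7% rose. Over the main fit and the alternatives, between 62 and 96 of the 155 genes fell. Over the same fits between 2007 and 3728 of all genes fell and between 2078 and 3845 rose. The rises, named after their values were seen, were those of the mitotic kinase genes Nek6 (1.30-fold higher, edgeR adjusted p = 0.00188) and Nek9 (1.08-fold higher, adjusted p = 0.0335) and of the gamma-tubulin complex gene Tubgcp3 (1.11-fold higher, adjusted p = 0.0244). With the replicate block 10 of the 155 genes rose, against 26.6% of all genes in that fit. The number of rises was 5 with scaling by total count alone and 5 without control replicate 4. It was 1 without treated replicate 2, treated replicate 4, control replicate 2 or control replicate 3. Tubgcp3 lost its call in each of these last 4 fits (adjusted p = 0.0642 to 0.0843). Nek9 lost its call in the same fits, without treated replicate 3 and without a filter on low counts (0.0737 to 0.0966).

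Of 20 regulators of mitotic gene transcription 7 fell by edgeR's test and the others did not pass, the median log2 fold change being -0.11. The called genes with the largest changes were Rbbp4, a MuvB subunit (1.22-fold lower, adjusted p = 0.00574), Rbl2, the pocket protein of the DREAM repressor (1.20-fold lower, adjusted p = 0.0108), the late cell cycle repressor E2f7 (1.17-fold lower, adjusted p = 0.00253) and E2f2 (1.15-fold lower, adjusted p = 0.00428). Foxm1 and Mybl2, named after their values were seen, are the activators of late cell cycle genes. Foxm1 was at 176, 178, 169.6 and 182 CPM in treated and 181, 193, 183 and 202 CPM in control libraries (log2 fold change -0.10, 95% interval -0.20 to -0.01, adjusted p = 0.0913), and it passed with the replicate block (adjusted p = 0.00943) and without control replicate 1 (0.0406). Mybl2 was 1.12-fold lower (adjusted p = 0.0339) and lost its call in 6 of the fits that left out 1 library, with adjusted p up to 0.0907. These were the fits without treated replicate 2, 3 or 4 and without control replicate 1, 2 or 3.

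Subunits and regulators of the anaphase promoting complex fell in 7 of 17 cases, the others not passing the test, the median log2 fold change being -0.13. Anapc13 and Cdc26, small subunits, were 1.23-fold lower and 1.19-fold lower (adjusted p = 0.00304 and 0.00203). Fzr1, the activator that replaces CDC20 at mitotic exit, was 1.16-fold lower (adjusted p = 0.00118), and the catalytic Anapc11 1.14-fold lower (adjusted p = 0.00854). Of the other kinetochore and checkpoint genes 18 of 36 fell and the others did not pass. Sgo2a, a shugoshin that protects cohesin, was 1.34-fold lower (adjusted p = 6.89e-05). Ska3 and Ska1, microtubule-binding partners of the Ndc80 complex, were both 1.32-fold lower (adjusted p = 2.41e-05 and 0.000344).

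Condensin and cohesin genes fell in 11 of 20 cases, and the others did not pass. Esco2, the acetyltransferase that establishes cohesion, had the largest change at 58.7 ± 3.53 CPM in treated and 87.5 ± 2.31 CPM in control libraries (SD, n = 4; log2 fold change -0.58, SE 0.048, edgeR adjusted p = 2.87e-06). The condensin subunits Ncaph, Ncaph2 and Ncapd2 were 1.29-fold lower, 1.27-fold lower and 1.26-fold lower (adjusted p = 1.16e-05, 9.37e-05 and 0.000108). Among other regulators of mitotic entry and exit 11 of 20 fell and 2 rose, with Ccnf, a cyclin that marks proteins for degradation, 1.51-fold lower (adjusted p = 2.01e-06). The phosphatase gene Cdc14a was 1.43-fold lower (adjusted p = 5.90e-05), the CDK subunit gene Cks2 1.35-fold lower (adjusted p = 9.75e-05) and the mitotic kinase gene Pbk 1.34-fold lower (adjusted p = 0.000235).

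In the list of other spindle, centrosome and cytokinesis genes 22 of 42 fell and 1 rose. Pimreg had the largest decrease of all 155 genes, at 42.3 ± 1.38 CPM in treated and 66.9 ± 2.82 CPM in control libraries (SD, n = 4; log2 fold change -0.66, SE 0.046, edgeR adjusted p = 5.86e-07). Cep55, which recruits the abscission machinery to the midbody, was 1.49-fold lower (adjusted p = 1.13e-06). Depdc1b and Depdc1a were 1.38-fold lower and 1.35-fold lower (adjusted p = 9.61e-05 and 0.000623).

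Most genes of origin licensing and S phase fell too. By edgeR 19 of 22 fell, against 18.1% of all genes tested, the median log2 fold change being -0.23. Without treated replicate 2, 12 fell, and the share of all genes in that fit is not given here. Rrm2 and Rrm1, subunits of ribonucleotide reductase, were 1.41-fold lower and 1.31-fold lower (adjusted p = 0.000346 and 0.000406). Ccne1, a cyclin of S phase entry, was 1.31-fold lower (adjusted p = 0.000118), and Slbp, which binds histone messages, 1.26-fold lower (adjusted p = 0.000156). Among the genes that did not pass, named after their values were seen, Mcm5 and Mcm2, subunits of the replicative helicase, had log2 fold changes of -0.11 and -0.04, and Mcm5 passed with the replicate block (adjusted p = 0.00642). Whether the members fell more than these lists was not tested.

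**Figure D5:**
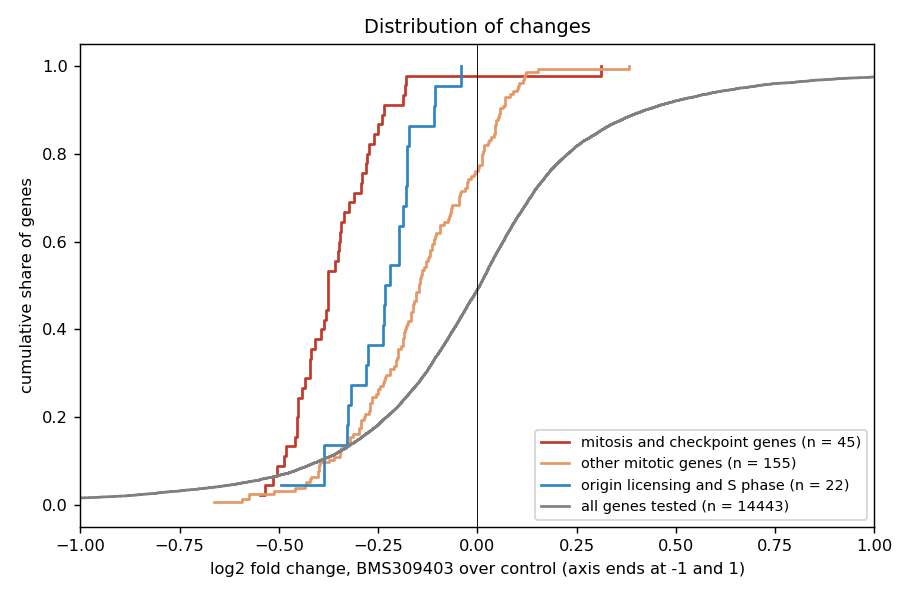
Cumulative share of genes against log2 fold change (treated over control) for the members (n = 45), the other mitotic genes (n = 155), the origin licensing and S phase genes (n = 22) and all genes tested (n = 14443); the axis ends at -1 and 1. The medians are -0.38, -0.15, -0.23 and 0.01.

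Some members share sequence or position with other genes, and no source used here says how strand and reads with several matches were counted. Processed or unprocessed pseudogenes with at least 95% identity over at least 300 bases of transcript were annotated for Ccnb1 (5 copies), Hmgb2 (5), Cdc20 (1) and Mad2l1 (1). The counts assigned to these copies were low, a summed 0.645 CPM in treated and 0.749 CPM in control libraries for the 4 copies of Ccnb1 that have counts and 2.81 CPM in treated and 3.77 CPM in control libraries for Hmgb2. Exons of 11 members overlap those of a gene on the other strand. The partner with the most overlap, Rccd1 beside Prc1, rose (log2 fold change 0.61, edgeR adjusted p = 0.0012), as did 9930104L06Rik beside Cdca8 (0.27, adjusted p = 0.0287; not called without treated replicate 2 or 4 or control replicate 2 or 3, adjusted p = 0.0631 to 0.0903), while Exosc9 beside Ccna2 had a log2 fold change of -0.03 (adjusted p = 0.738). Values of Prc1, Cdca8 and the other overlapping members are uncertain to that extent.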

How the data were processed

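RNA-seq counts of 8 libraries, 4 with BMS309403 and 4 control, were used. The authors deposited raw counts of reads per Ensembl gene, not normalized, 1 file per library. STAR, featureCounts, deepTools and DESeq2 are named, with the build GRCm38, per the submitters' processing notes; the sources used here give no annotation release or strand setting. The libraries were made with a stranded mRNA kit, per the labels' protocols. Symbols, coordinates and exonic lengths came from GENCODE M21 for 53360 of 53465 IDs; the other 105 held 0.0063% of counts.

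The members and gene lists were chosen with earlier results of these data known. After filterByExpr and TMM normalization, genes were tested in edgeR 4.0.16 under R 4.3.3 (quasi-likelihood F-test), with treatment alone in the model, 6 residual degrees of freedom and Benjamini-Hochberg adjustment over 14443 genes. CPM values use TMM-adjusted library sizes. The SE was derived from the F statistic. On simulated counts 84.4% of genes changed 2-fold, 79.7% of those changed 1.5-fold and 44.8% of those changed 1.25-fold were called, and 0.0567% of unchanged genes, in a fit of 14294 genes. Of these, 14099 were simulated as unchanged, so far fewer genes changed than were called in the data. The simulated shares need not hold for the data. Alternatives used DESeq2 1.42.0, limma-voom (limma 3.58.1), other scalings, no filter, a replicate block and fits without single libraries. Near-identical transcripts were found with BLAST+ 2.17.0.

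Named genes were all 45 members, up to 4 called genes per list by size of change, markers and Fabp5; values in every library were given for up to 3 members per role by mean CPM, and for Pttg1. Some genes that this rule names are not reported here. Within groups, every pair of libraries was further apart than counting noise (chi-square per degree of freedom 3.08 to 24.2), so none was counted as a duplicate. Treated and control libraries with the same number in their titles deviated together from their group means, with correlations across genes of 0.384 (number 1), 0.145 (2), 0.106 (3) and 0.264 (4). Treated library 2 correlated more with control library 4 (0.208) than with its own number. Since each same-number value was above 0.1, the titles' numbers were taken to pair the libraries for the replicate block and the comparisons within numbers. The labels do not state this pairing, and the main fit left it out. Among the members and the other named genes, Cenpe, Mki67, Foxm1, Fabp5 and Mcm5 missed the threshold in the main fit and passed with the block.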

Additional observations from a re-analysis of the deposited data

Results flagged for a closer look

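Over the 45 members, 90 groups of 4 libraries were examined for a library far from the other 3 of its group, by Dixon's ratio above its 95% critical value, and 8 stood out; chance gives about 1 in 20. In treated libraries replicate 1 was far above the others for Incenp (209 CPM, the next 201), Bub1 (113 CPM, the next 107), Mad2l1 (121.6 CPM, the next 110.4) and Top2a (1220.0 CPM, the next 1141). Treated replicate 3 was far below for Ttk (38.7 CPM, the next 40.2). In control libraries replicate 1 was far below for Cdca8 (145 CPM, the next 148) and Dlgap5 (119.8 CPM, the next 131), and far above for Nuf2 (82.6 CPM, the next 73.7). Each of these genes kept its call without the library in question.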

How the results depend on the processing

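The 43 member calls kept their direction and their side of the threshold in all 15 alternatives: other scalings, no filter on low counts, DESeq2, limma-voom, the replicate block, leaving out each library, and leaving out replicate 1 of both groups, chosen after seeing the data. The count of members that fell lay between 42 and 44. Cenpe and Mki67 passed in 5 alternatives each, the 4 kinds given above and the fit without replicate 1 of both groups (adjusted p = 0.0133 and 0.0216). Counts over all genes stayed within 1.5 times, between 2078 and 3845 higher and between 2007 and 3728 lower. Among other mitotic genes the count of rises was 5 by total count and 10 with the replicate block, and 1 to 5 with a library left out, against 3. S phase genes that fell numbered 12 to 20 with a library left out, against 19. Among the genes recomputed (the members and the other named genes), signs turned for genes that were not called: with a library left out, the log2 fold change of Cd8a lay between -0.348 and 0.035 (without control replicate 3), and the log2 fold change of Lyz2 between -0.523 and 0.090 (without treated replicate 2), with 0.023 without control replicate 3; without control replicate 1 the log2 fold change of Mcm2 (-0.088 to 0.012) and the log2 fold change of Exosc9 (-0.068 to 0.015) reached the upper ends of their ranges. Among the same genes the replicate block changed the calls of Cenpe, Mki67, Foxm1, Fabp5 and Mcm5 and no other call, and Foxm1 also passed without replicate 1 of both groups (adjusted p = 0.0369). The cause of these changes was not tested. All members had at least 497 reads in every library, so depth limits the report mainly through the number of libraries, 4 per group.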
